A study of Rattus norvegicus with 12 samples.

Results

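Long noncoding RNAs (lncRNAs) are long transcripts without a known protein product. The genes described here are the 516 genes of the table that carry the biotype lncRNA and had a mean of 2 TPM or more over the 12 libraries. They were chosen from 2488 genes of that biotype among 30562 genes in all, and their mean levels are therefore a description and not a finding. Differences between treatments played no part in the choice. TPM (transcript abundance relative to all transcripts of a library) divides the reads of a gene by its length and scales each library to the same total, so levels can be compared between genes.

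RNA was measured by polyA RNA-seq in rat H9c2 cells, an established line derived from the embryonic heart of the rat, labelled as cardiomyocytes. The 4 groups held 3 libraries each: control cells, an MMA group, a folic acid (FA) group and a group that received the combination (MMA+FA). The labels write MMA without spelling it out, and the series title speaks of methylmalonic acid. The sources used here give no dose, time or culture conditions, and nothing says that the 3 libraries of a group came from separate cultures, so p-values measure only the spread between these libraries. TPM keeps no record of depth, which is therefore unknown for all 12 libraries. Fewer cells of a kind and less RNA per cell cannot be told apart in such bulk samples.

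Some lncRNAs act on chromatin or as scaffolds in the nucleus, and others matter mainly because they are transcribed next to, or around, another gene. Host lncRNAs carry small nucleolar RNAs (snoRNAs) in their introns, which guide the modification of ribosomal RNA, or carry microRNA hairpins that are cut out of the primary transcript. Many lncRNAs start back to back with a protein-coding gene and share its promoter region. In heart and muscle, Carmn is known as the host of the smooth-muscle and cardiac microRNAs miR-143 and miR-145, and Fendrr as a mesoderm lncRNA beside the transcription factor gene Foxf1.

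The biotype was checked against gene names. Of the 516 genes, 90 had a symbol and 426 had only an identifier. By symbol, RefSeq (rat build GRCr8) lists 29 of the 90 as lncRNA genes, 52 as protein-coding genes and 1 as a transcribed pseudogene, and 8 symbols were not found in it. The second set holds familiar protein-coding names such as Actg1 (cytoplasmic gamma-actin), Rhob (a small GTPase), Selenow (selenoprotein W) and Sumo3 (a ubiquitin-like modifier). These loci are called here genes annotated lncRNA, since the table alone does not show which transcript the reads came from. Of the 90, 20 genes share their symbol, 16 in all, with another locus of the table, and their reads may be split or shared. The annotation also works the other way: H19, at a mean of 1438 TPM, and Tug1, at 15.8 TPM, are well-known lncRNAs that the table lists as protein_coding, so they are not among the 516. None of 20 names of snoRNA host lncRNAs looked up (Gas5 and the Snhg genes among them) is in the table under that name.

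The level of these genes was low. Their median mean level was 8.07 TPM (quartiles 3.90 and 19.1), against 19.8 TPM for all 12263 genes tested. Only 14 reached 100 TPM, 221 reached 10 TPM and 340 reached 5 TPM, while 661 genes of the biotype were at 0 in every library. All 516 passed the filter for testing, a mean of 1 TPM or more. Values above 0 in all libraries were found for 513 of them, and 486 had a mean of 2 TPM or more in each of the 4 groups. The last genes inside the limit had means of 2.00, 2.01 and 2.01 TPM, and the first outside 1.99, 1.98 and 1.98 TPM. Libraries of a group varied more for these genes than for genes in general: the median within-group SD was 0.137 on the log2(TPM + 1) scale, against 0.0895 over all genes tested. The sets were not matched for level, and the part of the lower level in this was not tested.

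**Figure D1:**
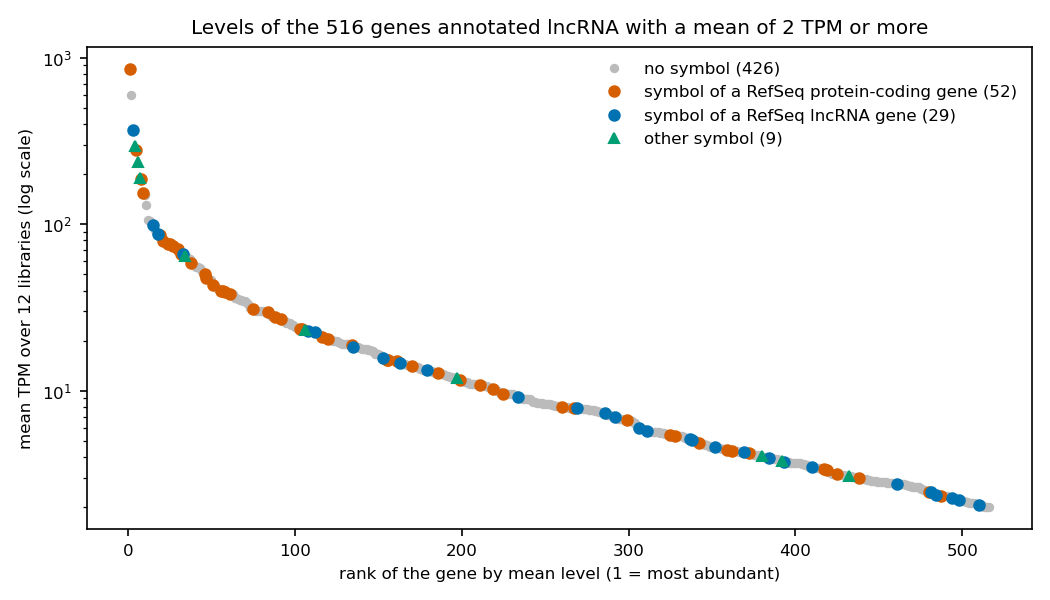
Mean TPM over the 12 libraries (log scale) for the 516 genes annotated lncRNA, ordered by rank, coloured by what RefSeq lists under the same symbol. Levels run from 858 TPM to 2.00 TPM, and the genes with protein-coding symbols lie along the whole range.

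The most abundant gene was the locus named Actg1, at a mean of 858 TPM. It was followed by ENSRNOG00000068880, without a symbol, at 597 TPM, by LOC100912041 at 370 TPM, by Nupr1l1 at 294 TPM and by Rhob at 278 TPM. AABR07072539.4 (238 TPM), Hsp90aa1-ps17 (190.2 TPM), Selenow (186 TPM) and Gng10 (153 TPM) came next, and none of these 4 was called in any of the comparisons below. Together the 516 genes held 1.19% ± 0.0212 (SD, n = 3) of all TPM in control, 1.10% ± 0.0418 in MMA cells, 1.11% ± 0.0257 in FA cells and 1.06% ± 0.00983 in the combination. The control libraries, from 11809 to 12182 summed TPM, lay above all 9 treated libraries, from 10494 to 11395. Without the 52 loci with protein-coding symbols the order of control above the treated groups was kept, with means of 9121, 8260, 8349 and 7825 TPM. No test is given for these sums.

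Some of the genes span snoRNA genes. All 4 named genes of this kind, LOC100912041, LOC120102992, LOC120098269 and LOC102547700, enclose snoRNA genes in RefSeq's GRCr8 annotation. LOC100912041 spans 7 of them, including Snord26, Snord27, Snord28b and Snord30, and starts 271 bases from Slc3a2 in the opposite direction. LOC120102992 spans 4, including Snora61 and Snord99, and lies beside Trnau1ap. LOC120098269, beside Epb41l4a, and LOC102547700, beside Myo1g, span 1 each. As background, the human host genes SNHG1, SNHG12, EPB41L4A-AS1 and SNHG15 lie beside SLC3A2, TRNAU1AP, EPB41L4A and MYO1G. Whether the rat genes are their counterparts was not tested.

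The promoters of these genes are shown because each of the 4 genes was called lower with MMA+FA, as were 32.6% of all genes tested. Each is 300 bases from RefSeq (GRCr8), from 250 bases before to 50 bases after the start, 5′ to 3′, with capitals for matches, on either strand, to the CCAAT box, the GC box GGGCGG, the TATA box TATAAA, the cyclic AMP response element TGACGTCA or the E box CACGTG. The windows are chr1:215048085-215048384 on the plus strand for LOC100912041, chr5:149784034-149784333 on the plus strand for LOC120102992, chr18:25677907-25678206 on the plus strand for LOC120098269 and chr14:85622736-85623035 on the minus strand for LOC102547700.
LOC100912041: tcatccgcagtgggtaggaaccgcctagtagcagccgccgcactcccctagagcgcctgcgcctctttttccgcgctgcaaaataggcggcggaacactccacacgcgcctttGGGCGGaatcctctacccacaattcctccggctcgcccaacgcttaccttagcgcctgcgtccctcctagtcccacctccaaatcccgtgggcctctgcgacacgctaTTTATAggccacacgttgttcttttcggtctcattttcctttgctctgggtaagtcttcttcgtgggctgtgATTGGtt
LOC120102992: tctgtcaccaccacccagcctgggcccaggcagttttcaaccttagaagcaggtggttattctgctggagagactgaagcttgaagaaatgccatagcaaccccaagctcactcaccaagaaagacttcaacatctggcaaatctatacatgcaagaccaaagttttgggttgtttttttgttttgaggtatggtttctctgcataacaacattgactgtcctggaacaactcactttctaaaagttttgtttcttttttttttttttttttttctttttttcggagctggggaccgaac
LOC120098269: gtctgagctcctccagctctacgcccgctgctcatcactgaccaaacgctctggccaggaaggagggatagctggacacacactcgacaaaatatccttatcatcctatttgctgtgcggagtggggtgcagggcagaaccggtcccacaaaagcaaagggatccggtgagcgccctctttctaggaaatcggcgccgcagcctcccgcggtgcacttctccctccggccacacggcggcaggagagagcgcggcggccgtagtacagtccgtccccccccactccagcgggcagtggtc
LOC102547700: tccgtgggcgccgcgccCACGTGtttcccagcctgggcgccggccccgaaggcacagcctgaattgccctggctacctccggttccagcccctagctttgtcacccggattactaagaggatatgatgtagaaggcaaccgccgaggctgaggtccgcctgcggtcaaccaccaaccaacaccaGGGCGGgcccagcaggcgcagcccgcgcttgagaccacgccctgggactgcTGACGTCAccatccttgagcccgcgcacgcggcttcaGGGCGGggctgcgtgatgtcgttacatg
The window of LOC100912041 held 1 GC box and, read on the strand opposite to the gene, 1 TATA box and 1 CCAAT box. That of LOC102547700 held 2 GC boxes, 1 cyclic AMP response element and 1 E box. No match overlapped another, and LOC120102992 and LOC120098269 held none. Among 27457 rat promoters of the same length, the CCAAT box was found in 37.7%, the GC box in 34.9%, the TATA box in 14.3%, the E box in 6.65% and the cyclic AMP response element in 1.91%. No motif searched was found in all 4 windows, and only the GC box was found in more than 1.

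LOC100912041 read 435, 465 and 469 TPM in the 3 control libraries, 412, 409 and 379 with MMA, 351, 343 and 324 with FA, and 287, 313 and 255 with MMA+FA. The groups did not overlap: each treated library lay below every control, and each MMA+FA library below every FA library. On the log2(TPM + 1) scale, on which every log2 difference here is given, it fell by 0.43 with FA (SE 0.07, limma adjusted p = 0.0049) and by 0.68 with MMA+FA (adjusted p = 3.48e-05). The difference with MMA alone, -0.19, did not pass (adjusted p = 0.0592). MMA+FA was lower than MMA by 0.49 (adjusted p = 0.000565). Its lower value against FA, -0.25 (adjusted p = 0.0313), lost the call with median-ratio scaling (-0.18, adjusted p = 0.147), without the low-value filter, without the trend or with only the groups compared. Leaving out FA 1, FA 3, MMA+FA 1 or MMA+FA 3 also ended it (-0.18 to -0.29). Slc3a2, the amino acid transporter heavy chain gene that starts 271 bases away, had a smaller difference with MMA+FA (-0.37, adjusted p = 0.000323). Its differences were -0.196 with MMA (adjusted p = 0.0207) and -0.136 with FA (adjusted p = 0.0978). For MMA+FA they were -0.172 against MMA (adjusted p = 0.0454) and -0.231 against FA (adjusted p = 0.0204). The gap between the genes was not tested in any comparison.

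LOC120102992 read 113, 107 and 117 TPM in control, 94.94, 95.01 and 86.6 with MMA, 78.1, 85.3 and 73.8 with FA, and 74.97, 72.4 and 57.5 with MMA+FA. All treated libraries lay below all controls, and the FA and MMA+FA libraries overlapped. It fell by 0.50 with FA (SE 0.09, adjusted p = 0.00854) and by 0.72 with MMA+FA (adjusted p = 0.00015). Its call with MMA, -0.28 (adjusted p = 0.0403), was lost with median-ratio scaling (-0.21), without the filter or the trend, and without any of the control or MMA libraries or FA 1 (-0.24 to -0.32, highest adjusted p 0.144). Its neighbour Trnau1ap, which takes part in selenoprotein synthesis, differed by -0.14 with MMA+FA (adjusted p = 0.0362). That is near the median of all genes tested, -0.117 as deposited. Differences of neighbouring genes are given here only on the as-deposited scale, without the alternative fits.

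LOC120098269 read 76.3, 74.96 and 82.1 TPM in control, 74.06, 67.4 and 62.0 with MMA, 57.6, 64.6 and 57.0 with FA, and 61.1, 61.7 and 52.2 with MMA+FA. All treated libraries were below all controls. It fell by 0.41 with MMA+FA (SE 0.08, adjusted p = 0.00185), and the call with FA, -0.38 (adjusted p = 0.0148), was lost without control 3, FA 1 or FA 3 (-0.34, -0.35 and -0.34). LOC102547700 read 25.8, 26.5 and 27.65 TPM in control, 22.7, 22.4 and 20.4 with MMA, 21.6, 23.45 and 21.3 with FA, and 21.1, 20.3 and 17.4 with MMA+FA. It also lay below control in every treated library, and it fell by 0.43 with MMA+FA (adjusted p = 0.000767). Its calls with MMA (-0.28, adjusted p = 0.0178) and FA (-0.26, adjusted p = 0.0343) were lost with median-ratio scaling (-0.20 and -0.21). They were also lost without control 3 or MMA 3 for MMA (-0.25 and -0.23), and without the filter, control 1, 2 or 3, FA 1 or FA 3 for FA (-0.23 to -0.28).

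**Figure D2:**
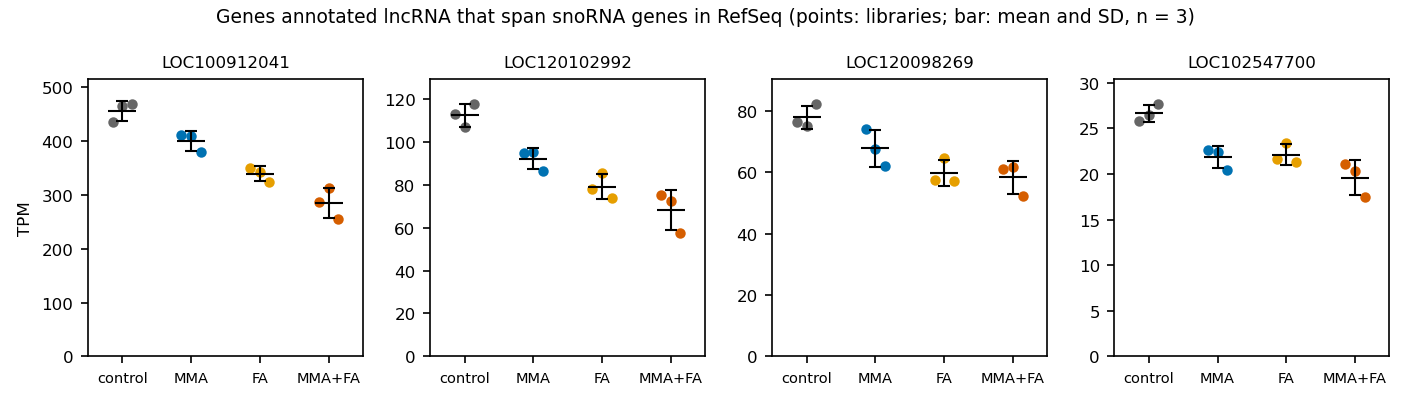
TPM (linear axis from 0) of the 4 genes that span snoRNA genes, by group; points are libraries, the bar and whiskers the mean and SD (n = 3). In all 4 genes the control points lie above every treated point, and for LOC100912041 the MMA+FA points (255 to 313 TPM) lie below the FA points (324 to 351 TPM). The share of all genes tested with control above every treated library is not given here, and 32.6% of them were called lower with MMA+FA.

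The table also gives Gene Ontology terms, and the pair RNA processing and nucleolus, which 1702 of its 1706 snoRNA genes carry, marks 9 of the 516 genes. LOC120102992 and LOC102547700 are among the 9. With MMA+FA, 0 of the 9 were higher and 3 lower, where 39.3% of all genes tested were called (6.67% higher and 32.6% lower). The other one called was ENSRNOG00000067218. That gene read 30.2, 30.4 and 34.4 TPM in control and 23.2, 24.6 and 18.6 with MMA+FA, a fall of 0.50 (adjusted p = 0.00149), and its libraries did not overlap. The other 6 were not called with MMA+FA. Over the 9 genes the median difference was -0.165, against -0.117 over all genes tested. Rpl30 is 1 of the 6, at 3.40 ± 0.432 TPM in control and 3.44 ± 0.154 with MMA+FA (SD, n = 3). Of the 9, 1 was higher and 3 lower with MMA (all genes tested: 3.85% and 16.5%). With FA the counts were 0 and 3 (3.67% and 8.7%). MMA+FA against MMA gave 1 and 3 (4.19% and 9.53%), and against FA 0 were called (10.5%). With median-ratio scaling these became 1 and 0 with MMA, 0 and 2 with FA, and 1 and 2 against MMA. The count with MMA+FA became 1 and 3. The F test called 6 of the 9, 66.7% against 41% of all genes tested. Proteins that build snoRNPs were looked up as a list of 15, all tested: none rose against control, while 2 fell after MMA, 5 after FA and 3 after the combination. Over all genes tested 16.5%, 8.7% and 32.6% fell. Nop58 and Nop56, core box C/D proteins, differed with MMA+FA by -0.459 (adjusted p = 0.00013) and -0.273 (adjusted p = 0.000377). With median-ratio scaling the list counts became 0 and 0 with MMA, 2 higher and 2 lower with FA, and 3 higher and 2 lower with MMA+FA.

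Carmn is the only gene among 18 microRNA host lncRNAs looked up that the table names. In RefSeq it spans Mir143 and Mir145. For each of these hairpins 1 mature sequence from RefSeq (GRCr8) is printed 5′ to 3′ with the seed (bases 2 to 8) in capitals. The other arms, rno-miR-143-5p and rno-miR-145-3p, are not printed. The 2 printed seeds differ, so the printed sequences belong to different target families. Their places are chr18:57371373-57371394 on the minus strand and chr18:57370033-57370055 on the minus strand.
rno-miR-143-3p: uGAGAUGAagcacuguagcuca
rno-miR-145-5p: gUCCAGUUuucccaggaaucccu
The mature microRNAs themselves were not analysed here. Carmn read 5.68, 4.91 and 6.55 TPM in control, 3.92, 4.08 and 3.46 with MMA, 6.17, 6.49 and 3.91 with FA, and 5.15, 5.36 and 5.68 with MMA+FA. The MMA libraries lay below all control and MMA+FA libraries, and FA 3 lay within them. The difference with MMA, -0.47 (SE 0.14), had an adjusted p of 0.0357. The call was lost with median-ratio scaling (-0.41, adjusted p = 0.072), without the filter, and without control 1, control 3, MMA 1, MMA 2 or MMA 3 (-0.38 to -0.51, adjusted p from 0.0601 to 0.13). With FA and MMA+FA the differences were -0.06 each (adjusted p = 0.81 and 0.752). Smooth muscle markers, which accompany miR-143 and miR-145 in vessels, were abundant: 5 of 5 were above 1 TPM, with summed levels from 6715 to 6760 TPM in control, 6610 to 7696 with MMA, 7468 to 8091 with FA and 8198 to 8592 with MMA+FA. Their part in the level of Carmn was not tested.

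Fendrr read 9.54, 9.44 and 10.4 TPM in control, 9.33, 8.41 and 8.65 with MMA, 9.09, 8.94 and 8.49 with FA, and 9.57, 9.60 and 8.19 with MMA+FA. The groups overlapped at control and MMA+FA, and no comparison was called (-0.14, -0.13 and -0.09 against control, adjusted p = 0.18, 0.226 and 0.312). Its neighbour Foxf1 was at a mean of 26.6 TPM and differed with MMA by -0.20 (adjusted p = 0.0246). Lnc134, which starts 35 bases from Klhl12 in the opposite direction, read 8.33, 9.78 and 8.13 TPM in control and 6.94, 7.57 and 7.15 with MMA+FA. Its groups did not overlap there, and the difference of -0.24 had an adjusted p of 0.0446. That call was lost with median-ratio scaling (-0.13, adjusted p = 0.279), without the filter, and without control 1, control 2, MMA 1 or any of the MMA+FA libraries (-0.17 to -0.27).

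LOC120098812 starts 51 bases from Cdkn1a, the gene of the cell-cycle inhibitor p21, in the opposite direction. Its promoter window from RefSeq (GRCr8), chr20:7150720-7151019 on the minus strand, is shown because a lncRNA was called from it and its protein-coding partner was not, and it held none of the motifs searched.
LOC120098812: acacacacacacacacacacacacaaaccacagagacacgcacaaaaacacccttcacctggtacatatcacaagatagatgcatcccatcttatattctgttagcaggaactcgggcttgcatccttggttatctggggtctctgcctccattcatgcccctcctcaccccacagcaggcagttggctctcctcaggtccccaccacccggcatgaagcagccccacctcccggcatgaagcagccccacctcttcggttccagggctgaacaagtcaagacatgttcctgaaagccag
LOC120098812 read 7.05, 7.60 and 8.91 TPM in control, 4.23, 5.86 and 4.89 with MMA, 4.36, 4.86 and 5.91 with FA, and 5.64, 4.84 and 4.69 with MMA+FA. All 9 treated libraries lay below all 3 controls, and the treated groups overlapped each other. It fell by 0.57 with MMA (SE 0.12, adjusted p = 0.00927) and by 0.55 with MMA+FA (adjusted p = 0.00453). With FA the difference was -0.55 (adjusted p = 0.018), and without control 3 or FA 1 it did not pass (-0.47 each). Cdkn1a itself was at 112 ± 3.60 TPM in control and 107 ± 6.01 with MMA+FA (SD, n = 3), and none of its differences against control (-0.03, 0.08 and -0.06) was called. Whether the lncRNA differed more than Cdkn1a was not tested.

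Among the 29 genes that RefSeq lists as lncRNAs, 5 start head to head with a protein-coding gene within 5 kb, 3 overlap a protein-coding gene on the other strand, 1 overlaps on the same strand and 8 do neither; for 12 the strand is not in the table used. LOC100912991 overlaps Pbdc1 on the other strand, so their reads can be told apart only if counting used strand, which the sources used here do not state. It read 17.8, 16.1 and 18.6 TPM in control, 12.5, 11.3 and 11.55 with FA, and 14.3, 14.2 and 10.95 with MMA+FA, and neither treated group overlapped control. It fell by 0.53 with FA (adjusted p = 0.0106; -0.49 and not called without control 3) and by 0.40 with MMA+FA (adjusted p = 0.00753; -0.28 and adjusted p = 0.051 with median-ratio scaling), and Pbdc1 was not called. LOC102555037 overlaps Eif4e3, which encodes a cap-binding protein. It read 7.64, 8.94 and 9.48 TPM in control and 5.40, 5.08 and 5.50 with MMA+FA, below every control, and fell by 0.61 (SE 0.09, adjusted p = 0.000548). Eif4e3 differed by -0.41 (adjusted p = 0.0422). The strands of this pair are not both known here, so the genes may share reads and may not be separate measurements. LOC108348999 read 12.8, 5.98 and 17.9 TPM in control and 30.8, 21.2 and 21.6 with MMA. Its difference of 1.04 (adjusted p = 0.0336) was the only call with MMA among the 516 genes at a log2 difference of 1 or more in size. It was lost without the filter, with only the groups compared, and without control 1, control 2 or any MMA library (0.64 to 1.13). Over these 29 genes, 3 were higher and 5 lower with MMA (all genes tested: 3.85% and 16.5%), 0 and 6 with FA (3.67% and 8.7%), and 1 and 11 with MMA+FA (6.67% and 32.6%). With median-ratio scaling these counts were 3 and 1, so that the split with MMA turned, 0 and 5, and 3 and 6.

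The comparisons against control share the same 3 control libraries, so their counts are not independent. Against control, MMA+FA gave the most calls at an adjusted p under 0.05: 30 of the 516 genes were higher and 188 lower, which is 42.2%. Over all genes tested 39.3% were called, so the share among the 516 is near that background (by direction, 6.67% of all genes were higher and 32.6% lower). The median difference was -0.19 for the 516 genes and -0.12 for all genes tested. The as-deposited scale itself leans low: with median-ratio scaling, which brings the median of all genes from -0.117 to -0.003, the counts became 53 higher and 108 lower, and the median of the 516 genes was -0.08. All genes tested then split into 1898 higher and 1710 lower. Only 5 of the calls reached a difference of 1 or more in size on the log2(TPM + 1) scale, as did 53 calls over all genes tested. The 5 include ENSRNOG00000068191, whose level is described below without a test. Without any 1 library the number of calls stayed between 174 and 230.

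**Figure D3:**
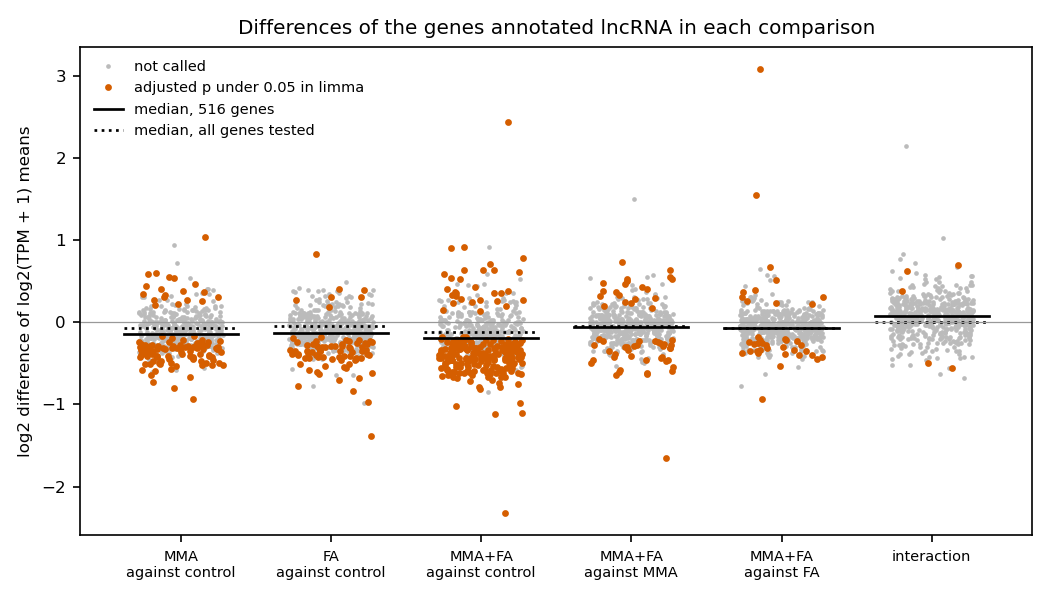
Log2 differences of the 516 genes in each comparison (y axis, difference of group means of log2(TPM + 1)); each point is a gene, orange if the limma adjusted p is under 0.05, with the median of the 516 genes (solid) and of all genes tested (dotted). In the 3 comparisons against control the solid line lies below the dotted one (-0.15, -0.13 and -0.19 against -0.07, -0.05 and -0.12); the highest point against FA is a gene listed at 0 in all FA libraries.

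The largest fall was that of ENSRNOG00000068084, a gene without a symbol. It read 15.7, 16.4 and 15.4 TPM in control, 10.3, 9.96 and 8.55 with MMA, 5.59, 5.03 and 5.65 with FA, and 2.32, 2.98 and 1.88 with MMA+FA. No 2 of the 4 groups overlapped, and the order was control, MMA, FA, MMA+FA. It fell by 0.67 with MMA (SE 0.11, adjusted p = 0.00313), by 1.39 with FA (adjusted p = 5.56e-05) and by 2.32 with MMA+FA (adjusted p = 1.92e-07). MMA+FA was also lower than MMA by 1.65 (adjusted p = 7.04e-06) and lower than FA by 0.93 (adjusted p = 0.00207). All 5 calls were kept without any 1 library, and the interaction was not called (-0.26, adjusted p = 0.396).

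ENSRNOG00000069496 and ENSRNOG00000065753 carry Gene Ontology terms of retroviral genes, the kind given to endogenous retroviral copies in the genome. The first read 185, 187 and 189.95 TPM in control, 144, 144 and 105 with MMA, 113, 121 and 111 with FA, and 82.7, 92.5 and 85.5 with MMA+FA. Control lay above all other libraries and MMA+FA below all others. It fell by 0.52 with MMA (SE 0.10, adjusted p = 0.00498), by 0.70 with FA (adjusted p = 0.00323) and by 1.10 with MMA+FA (adjusted p = 2.11e-05). The second read 33.3, 32.5 and 36.0 TPM in control, 25.7, 27.4 and 18.25 with MMA, 17.7, 20.7 and 17.3 with FA, and 14.95, 15.3 and 15.2 with MMA+FA. It fell by 0.51 with MMA (SE 0.12, adjusted p = 0.0115), by 0.84 with FA (adjusted p = 0.00323) and by 1.11 with MMA+FA (adjusted p = 6.12e-05). The other 3 genes with such terms were not called against control: the most abundant of them was at 21.1 TPM in control and 19.8 with MMA+FA. Copies of a retrovirus can share reads, so the split between these loci is uncertain.

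Other genes without a symbol were also low with MMA+FA. ENSRNOG00000064012 read 73.9, 78.75 and 78.3 TPM in control, 63.6, 61.1 and 48.7 with MMA, 47.8, 55.3 and 45.2 with FA, and 36.9, 39.1 and 36.0 with MMA+FA, and it fell by 1.03 with MMA+FA (SE 0.09, adjusted p = 2.53e-05). Its MMA+FA libraries lay below all others. ENSRNOG00000070027 read 24.7, 24.5 and 26.7 TPM in control and 14.6, 14.02 and 13.3 with MMA+FA, a difference of -0.815 (adjusted p = 1.76e-05). ENSRNOG00000070695 read 5.22, 5.43 and 5.09 TPM in control, and all its treated libraries lay from 2.37 to 3.36; it fell by 0.73 with MMA, by 0.62 with FA and by 0.79 with MMA+FA (adjusted p = 0.00158, 0.0049 and 0.000138).

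Fewer genes rose with MMA+FA, and several of the larger rises were in genes without a symbol. ENSRNOG00000071138 read 83.3, 81.8 and 86.3 TPM in control, 96.2, 87.9 and 96.1 with MMA, 103, 102 and 93.4 with FA, and 114, 131 and 150.09 with MMA+FA. The MMA+FA libraries lay above all others. It rose by 0.64 with MMA+FA (SE 0.08, adjusted p = 0.000174), and the differences with MMA (0.15) and FA (0.24) did not pass (adjusted p = 0.192 and 0.0677). ENSRNOG00000063787 read 72.1, 70.1 and 69.5 TPM in control, 72.8, 69.3 and 77.7 with MMA, 84.2, 79.2 and 87.1 with FA, and 93.8, 108 and 125 with MMA+FA. It rose by 0.61 with MMA+FA (adjusted p = 0.000263), with all MMA+FA libraries above all others. ENSRNOG00000064054, at a lower level, read 4.66, 6.37 and 6.51 TPM in control and 12.1, 10.5 and 13.01 with MMA+FA, and rose by 0.92 (SE 0.13, adjusted p = 0.000308). These 3 calls were kept without any 1 library.

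**Figure D4:**
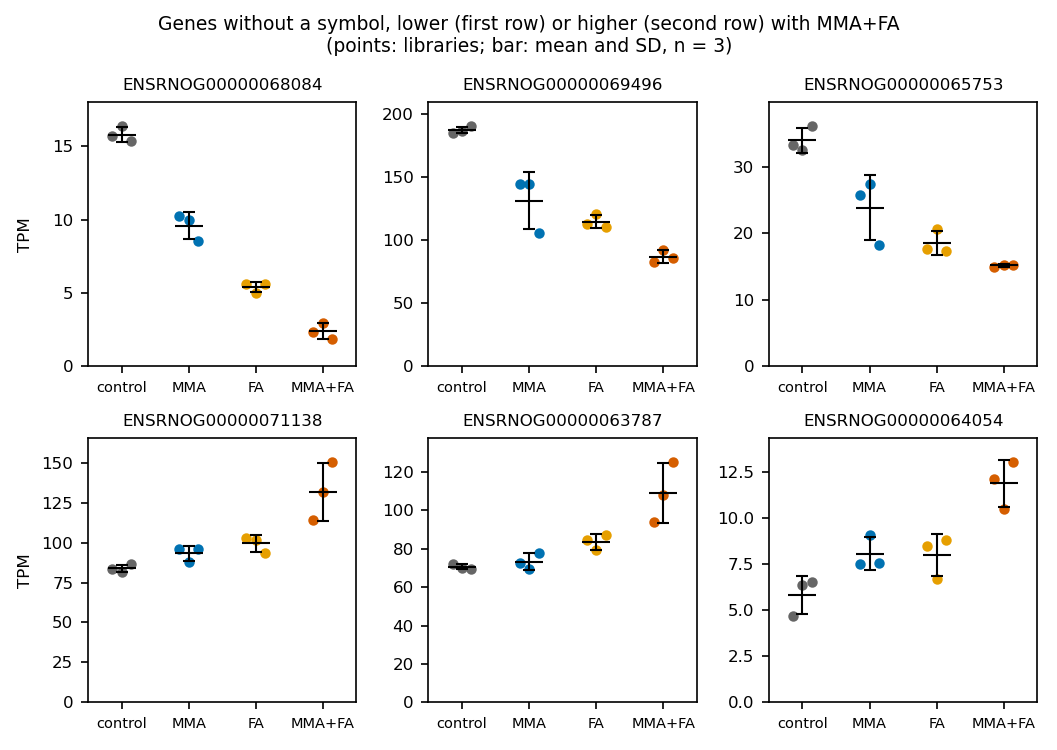
TPM (linear axes from 0) of 3 genes that were lower (first row) and 3 that were higher (second row) with MMA+FA; points are libraries, bars and whiskers the mean and SD (n = 3). ENSRNOG00000068084 steps down from 15.4 to 16.4 TPM in control to 1.88 to 2.98 TPM with MMA+FA, and in the second row the MMA+FA points lie above all others.

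Genes with a mean under 2 TPM in some group, 30 in all, reached the limit through the groups where they were higher. Their higher levels there are a description, and these genes were kept in all counts of calls. ENSRNOG00000068191 and ENSRNOG00000068881 are among them, as is a locus named Ufm1 (ENSRNOG00000038176). The Ufm1 locus had means of 1.79 TPM in control and 0.753 in FA, against 3.23 in MMA and 4.09 in MMA+FA. ENSRNOG00000068191 read 1.01, 0 and 0.88 TPM in control, 3.89, 0 and 4.42 with MMA, and 13.1, 5.87 and 5.31 with MMA+FA, and it is listed at 0 in all 3 FA libraries. No test is given for it, and no fold is given against FA, since the gene is listed at 0 there. ENSRNOG00000068881, which carries Gene Ontology terms of microRNA genes, read 1.72, 2.18 and 1.25 TPM in control, 1.90, 1.26 and 1.83 with MMA, 2.97, 3.58 and 5.03 with FA, and 3.82, 3.35 and 3.11 with MMA+FA. Its FA and MMA+FA libraries lay above all control and MMA libraries. Its means in control and MMA, 1.72 and 1.66 TPM, lay below the limit, and those in FA and MMA+FA, 3.86 and 3.43 TPM, above it.

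With MMA alone, 19 of the 516 genes were higher and 93 lower, 21.7% against 20.4% of all genes tested (3.85% higher and 16.5% lower). With median-ratio scaling the counts were 27 and 44, while all genes tested split into 1001 higher and 847 lower. The count of 112 dropped to 46 without control 1, to 57 without control 3 and to 45 without MMA 3. Among the genes that rose, ENSRNOG00000063720 read 18.4, 21.3 and 20.8 TPM in control and 30.3, 29.2 and 32.65 with MMA, a rise of 0.58 (SE 0.07, adjusted p = 0.00087) without overlap. LOC103690642, a RefSeq lncRNA, read 84.6, 94.3 and 85.8 TPM in control and 114, 114 and 102 with MMA. Its rise of 0.31 (adjusted p = 0.0292) was lost without control 1, control 3, MMA 1 or MMA 2 (0.28 to 0.29) and without the filter. Among those that fell was ENSRNOG00000065682, from 61.8, 57.3 and 56.6 TPM in control to 40.1, 38.8 and 33.4 with MMA, by 0.64 (adjusted p = 0.00173).

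With FA alone, 7 genes were higher and 70 lower, 14.9% against 12.4% of all genes tested (3.67% higher and 8.7% lower). Median-ratio scaling gave 11 and 42, while all genes tested split into 709 higher and 476 lower. This count of 77 changed with the libraries used: it was 33 without control 1, 49 without control 2, 17 without control 3, 24 without FA 1, 137 without FA 2 and 36 without FA 3. Rhob, at 255, 269 and 258 TPM in control and 301, 278 and 313 with FA, was higher by 0.19 (adjusted p = 0.0204) without overlap. That call was lost without control 1, control 3, FA 1 or FA 3 (0.15 to 0.18) and with only the groups compared. LOC108351200, a lncRNA near Rhob in RefSeq, was not called with FA. ENSRNOG00000063261 read 13.1, 12.6 and 16.2 TPM in control and 8.58, 9.21 and 5.72 with FA, a fall of 0.77 (SE 0.15, adjusted p = 0.0124) that was lost without control 3 (-0.67, adjusted p = 0.0645).

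The combination was also compared with each agent alone. Against MMA, 20 genes were higher and 37 lower with MMA+FA, 11% against 13.7% of all genes tested, of which 4.19% were higher and 9.53% lower. Median-ratio scaling gave 27 and 23, and 784 and 759 over all genes tested. The count of 57 fell to 31 without MMA 1, to 28 without MMA 2 and to 33 without MMA+FA 3. Actg1 was among the higher ones: it read 765, 717 and 831 TPM with MMA and 888, 899.89 and 951 with MMA+FA, a difference of 0.25 (SE 0.07, adjusted p = 0.0314), and it was not called against control. That call was lost without MMA 1, MMA 2 or any MMA+FA library (0.19 to 0.26), and without the filter or the trend. ENSRNOG00000070027 was among the lower ones, at 22.96, 23.2 and 20.0 TPM with MMA against 14.6, 14.02 and 13.3 with MMA+FA (-0.62, adjusted p = 0.000199). Against FA, 11 genes were higher and 27 lower, 7.36% against 10.5% of all genes tested (1.6% higher and 8.9% lower). With median-ratio scaling the direction of that split turned, to 12 higher and 6 lower, as did that of all genes tested, from 196 higher and 1092 lower to 421 and 302. The median of the 516 genes moved from -0.065 to 0.002. The count of 38 was also lower without MMA 2 (24), FA 1 (10), FA 3 (21), MMA+FA 1 (25), MMA+FA 2 (9) or MMA+FA 3 (10). Across all 4 groups, the F test called 203 of the 516 genes, 39.3%, against 41% of all genes tested.

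Loci with protein-coding symbols were called as follows. Of the 52, 3 were higher and 3 lower with MMA, 2 and 6 with FA, and 4 and 15 with MMA+FA. Over all genes tested 3.85% were higher and 16.5% lower with MMA, 3.67% and 8.7% with FA, and 6.67% and 32.6% with MMA+FA. With median-ratio scaling the counts became 4 and 1, 3 and 0, and 9 and 3, so the splits with FA and MMA+FA turned. Prelid1, a mitochondrial lipid transfer protein gene, read 61.2, 62.6 and 56.25 TPM in control and 78.0, 74.0 and 79.1 with MMA+FA, a rise of 0.36 (SE 0.08, adjusted p = 0.00327) with no overlap that was kept without any 1 library. Mafk, a small Maf transcription factor gene, read 83.0, 82.4 and 87.0 TPM in control, 68.6, 64.8 and 61.8 with MMA, 84.9, 77.2 and 87.6 with FA, and 73.6, 72.7 and 68.6 with MMA+FA. It fell by 0.37 with MMA (SE 0.06, adjusted p = 0.00246). With MMA+FA its difference of -0.23 (adjusted p = 0.0065) was lost with median-ratio scaling (-0.11, adjusted p = 0.149). Nupr1, a stress-response regulator gene, read 95.3, 88.1 and 87.0 TPM in control and 78.7, 71.4 and 71.4 with MMA. Its difference of -0.28 with MMA (adjusted p = 0.0114) was lost without control 1 (-0.24, adjusted p = 0.0527) and with median-ratio scaling (-0.21, adjusted p = 0.0621). Ube2q2l was higher in all 9 treated libraries, from 26.6 to 29.9 TPM, than in control, from 22.9 to 23.7 TPM, and rose by 0.27 with MMA (adjusted p = 0.00772) and with MMA+FA (adjusted p = 0.00325). With FA its rise of 0.28 (adjusted p = 0.0132) was lost without control 3 or FA 1 (0.29 and 0.26).

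The interaction of MMA and FA asks whether the effect of FA differed with and without MMA. It was called for 5 of the 516 genes, 0.969%, against 2.41% of all genes tested. Of the 5, 3 were positive and 2 negative, beside 0.938% and 1.47% of all genes tested. Rrm2l1 was the only one with a symbol. It is named for Rrm2, the small subunit of ribonucleotide reductase, which makes building blocks for DNA. The locus read 57.5, 55.9 and 58.9 TPM in control, 75.8, 72.3 and 77.3 with MMA, 52.6, 51.0 and 52.65 with FA, and 43.3, 48.2 and 53.1 with MMA+FA. Only MMA was high, and it lay above all other libraries. Rrm2l1 rose by 0.38 with MMA (SE 0.06, adjusted p = 0.00321), was lower in MMA+FA than in MMA by 0.63 (adjusted p = 7.42e-05), and had an interaction of -0.49 (SE 0.09, adjusted p = 0.0166). These calls were kept without any 1 library.

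The same pattern stood at related loci. A second locus named Rrm2l1, listed as a pseudogene, was at 46.3 ± 1.25 TPM (SD, n = 3) in control, 63.7 ± 1.89 in MMA cells, 45.7 ± 1.22 in FA cells and 41.1 ± 7.82 under the combination. Rrm2 itself, listed as protein_coding, was at 93.85 ± 2.998, 123 ± 3.60, 87.3 ± 4.42 and 83.6 ± 10.7 TPM. Their interactions were -0.62 (adjusted p = 0.0366) and -0.45 (adjusted p = 0.0425). Reads of near-identical copies can be split between loci, so the 3 are not independent measurements.

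**Figure D5:**
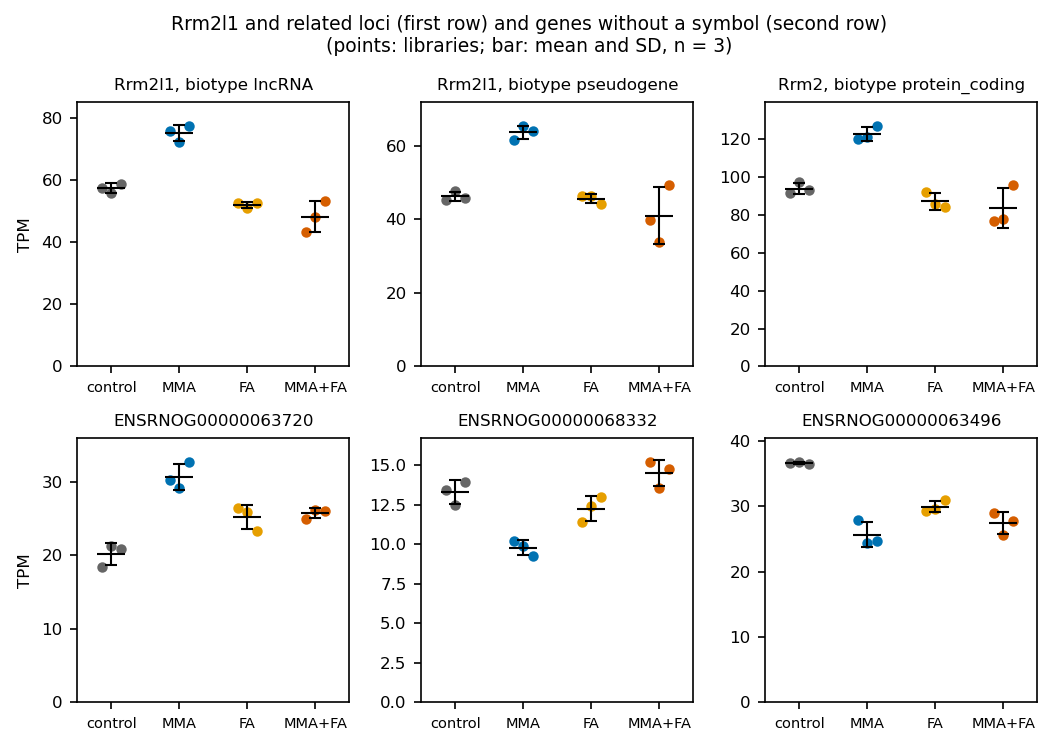
TPM (linear axes from 0) of Rrm2l1 and its related loci (first row) and of 3 genes without a symbol called in the interaction (second row); points are libraries, bars and whiskers the mean and SD (n = 3). In the first row the MMA points lie above all others, from 72.3 to 77.3 TPM for the Rrm2l1 locus annotated lncRNA.

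Of the 4 genes without a symbol called in the interaction, ENSRNOG00000063720 was highest with MMA, as given above, and read 26.45, 25.9 and 23.4 TPM with FA and 24.95, 26.2 and 26.0 with MMA+FA (interaction -0.56, adjusted p = 0.0146). ENSRNOG00000068332 had the opposite form. It read 13.45, 12.5 and 13.97 TPM in control, 10.2, 9.88 and 9.30 with MMA, 11.4, 12.4 and 12.98 with FA, and 15.2, 13.6 and 14.8 with MMA+FA. MMA lay below all other libraries, and the interaction was 0.63 (SE 0.09, adjusted p = 0.0112). ENSRNOG00000063496 read 36.6, 36.7 and 36.5 TPM in control, above all treated libraries, which lay from 24.3 to 30.96 TPM. Its interaction of 0.38 (adjusted p = 0.0376) was lost without any of these libraries: control 1, 2 or 3, MMA 2 or 3, FA 1, or MMA+FA 1 or 3 (0.34 to 0.38), and without the filter or the trend. ENSRNOG00000067217, at a mean of 2.998 TPM, had an interaction of 0.70 (adjusted p = 0.0461) that was kept only without FA 2 and was lost without any other library (0.59 to 0.77) or without the filter.

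Genes of RNA handling were counted from lists, as context for lncRNA levels. Beside the counts that follow, 6.67% of all genes tested were higher and 32.6% lower with MMA+FA, and with median-ratio scaling 1898 were higher and 1710 lower of 12263. Of 20 proteins of paraspeckles and nuclear speckles, the bodies that NEAT1 and MALAT1 are known for, 4 were higher and 2 lower with MMA+FA (9 and 1 with median-ratio scaling). Of 22 proteins of the nuclear exosome and its adaptors, which degrade unstable nuclear transcripts, 0 were higher and 5 lower (1 and 1 with median-ratio scaling). Of 16 factors of nonsense-mediated decay, 2 were higher and 5 lower (5 and 2 with median-ratio scaling). Of 14 writers, readers and erasers of the RNA mark m6A, 1 was higher and 9 lower, and this turned to 3 higher and 0 lower with median-ratio scaling. Wtap, of the methylation complex, and the eraser Fto differed by -0.269 and -0.195 as deposited (adjusted p = 0.00159 and 0.00536), and the eraser Alkbh5 by 0.329 (adjusted p = 0.0105). The shares of higher and lower calls in these lists therefore depend on the scaling.

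The labelled cell type was checked by markers. Of 14 cardiomyocyte markers in the table, 3 were at 1 TPM or more: Tnnt2, Nkx2-5 and Gata4. The contractile and natriuretic genes Myh6, Myh7, Actn2, Nppa and Nppb were all at means of 0.0542 TPM or less. Summed cardiomyocyte markers went from 32.3 to 38.4 TPM in control to 84.4 to 104 TPM with MMA+FA, chiefly Tnnt2, which went from a mean of 16.1 TPM to 73.6 TPM. Summed skeletal myoblast markers (3 of 8 at 1 TPM or more) went from 86.9 to 96.55 TPM down to 50.6 to 58.8 TPM, with Pax7 at 0. That drop was in Myod1, from a mean of 72.65 TPM to 31.7 TPM, while Des was higher with MMA+FA (0.381, adjusted p = 0.0322) and Myog did not pass (0.22, adjusted p = 0.0519). Fibroblast markers (7 of 10) summed to 8213 to 8917 TPM in control, 8509 to 9573 with MMA, 9698 to 11210 with FA and 8383 to 9905 with MMA+FA. The collagen genes Col1a1, Col1a2 and Col3a1 were called higher with FA (0.394, 0.266 and 0.281, adjusted p = 0.0176, 0.0263 and 0.0194). The other fibroblast markers tested were not called with FA: Postn (0.366), Thy1 (0.067), Lum (-0.145) and Prrx1 (-0.133), with adjusted p from 0.12 to 0.628. Of 4 epithelial markers only Krt8 was above 1 TPM, and it was higher in each treated group (0.243, 0.555 and 0.492). Leukocyte markers (1 of 4 in the table, Cd3e at a mean of 2.05 TPM) summed to at most 3.36 TPM. Endothelial markers (0 of 5) summed to at most 0.48 TPM in every library. Their part in the changes of the genes annotated lncRNA was not tested.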

How the data were processed

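PolyA RNA of 12 H9c2 libraries, 3 in each of 4 groups, was sequenced. The labels name TRIzol for extraction and an Illumina stranded mRNA kit for the libraries. Per the submitters' processing notes, the authors used fastp, HISAT2 and the rat build mRatBN7.2. Their versions, the annotation and the use of strand in counting were not given in the sources used here. Gene-level values were deposited: the authors supplied 1 table of gene-level TPM. All 12 sample columns were used.

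From these values, log2(TPM + 1) of the 12263 genes with a mean TPM of 1 or more was fitted with limma 3.58.1 (R 4.3.3) as 4 group means with a mean-variance trend. The fit was tested on simulated data. Every adjusted p is limma's, Benjamini-Hochberg adjusted over all genes tested within a comparison, and a gene is called at an adjusted p under 0.05. Fold changes on this scale understate the change of low genes. TPM holds no counts, so no counting error can be given.

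The members, gene lists and tests were chosen with earlier results of these data known. Named are the 15 most abundant genes, genes on the lists, up to 8 non-overlapping calls with the largest change in each direction of a comparison, and the interaction calls. Neighbouring genes, host genes, promoters and genes shown by name beyond these were chosen after their values were seen. Symbols, neighbours, promoters and microRNAs come from RefSeq tables of GRCr8, a different build from the authors', so only the printed sequences carry coordinates; 82 of the 90 symbols and 72 promoters were matched. Alternatives tried were median-ratio scaling, a pseudocount of 0.1, no filter, no trend, a replicate block, only the groups compared, and leaving out each library. Python 3.11.15 with pandas 2.3.3, numpy 2.4.6 and matplotlib 3.10.9 made the tables and figures.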

Additional observations from a re-analysis of the deposited data

Results flagged for a closer look

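Of the 516 genes, 5 had an effect of FA that differed with and without MMA, by the interaction term of limma, and are listed here for that reason. ENSRNOG00000068332 had an interaction of 0.63 on the log2 scale (adjusted p = 0.0112) and ENSRNOG00000063720 of -0.56 (adjusted p = 0.0146). Rrm2l1 had an interaction of -0.49 (adjusted p = 0.0166). ENSRNOG00000063496 had an interaction of 0.38 (adjusted p = 0.0376) and ENSRNOG00000067217 of 0.70 (adjusted p = 0.0461), and the calls of both were lost in most fits that left out a library. Their share among the 516 genes, 0.969%, was below the 2.41% of all genes tested.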

How the results depend on the processing

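Of 141 called results of single named genes, 76 kept the call without each library in turn. None changed direction under the alternatives run, but the choice of genes largely fixed this. Many were named as calls without overlap between groups, where leaving out a library cannot reverse the sign. The 141 also include genes that reached the limit through their higher groups, such as ENSRNOG00000068191, ENSRNOG00000068881 and the Ufm1 locus ENSRNOG00000038176. With median-ratio scaling 113 kept it, without the filter 100, without the trend 133, with a pseudocount of 0.1 141, and with only the groups compared 106 of 136. The counts called against control with MMA were 112, and 71 with median-ratio scaling, 70 without the filter, and 45 to 135 with a library left out. With FA they were 77, and 44 without the filter, 42 with only the groups compared, and 17 to 137 with a library left out. With MMA+FA they were 218, and 174 to 230 with a library left out. MMA+FA against MMA gave 57, 34 without the filter, and 28 to 69 with a library left out. MMA+FA against FA gave 38, 18 with median-ratio scaling, 12 without the filter, 2 with only the groups compared, and 9 to 43 with a library left out. The interaction gave 5, 3 without the filter, and 3 to 13 with a library left out, and the F test gave 203, and 142 to 255. A mean of 5 TPM or more would leave 340 genes and of 1 TPM or more 683. Without the loci with protein-coding symbols, chosen after seeing the data, the counts were 106, 69, 199, 50 and 35 in the 5 comparisons. The cause of these moves was not tested. By design, fits with a library left out or with only the groups compared use fewer libraries, and the fit without the filter tests more genes.

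Among the uncalled differences against control that were recomputed under every alternative (9 genes with symbols), those that changed sign were those of Fendrr with MMA+FA (0.0182 with median-ratio scaling), of Carmn with FA (-0.171 to 0.1336 with a library left out, above 0 without control 3 or FA 3) and with MMA+FA (0.0415 with median-ratio scaling, and -0.1517 to 0.025 with a library left out, above 0 without control 3), and of Lnc134 with MMA (0.0231 with median-ratio scaling, and -0.1115 to 0.0277 with a library left out, above 0 without control 2 or MMA 3).

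Residuals of same-numbered libraries correlated from -0.124 to 0.107 over 18 pairs, and those of differently numbered libraries from -0.203 to 0.141 over 36 pairs. Of 12 libraries, 2 were most like those of their own number. Residuals centred within groups of 3 libraries cannot settle whether the numbers pair the libraries. With a replicate block the counts were 100, 71, 213, 55 and 26 in the 5 comparisons, 4 in the interaction and 188 in the F test, and 131 of the 141 single calls were kept. TPM gives no depth, so a low gene near 2 TPM has an unknown counting error.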
